A study of Rattus norvegicus with 100 samples.

Results

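Primary rat hepatocytes were exposed to 10 µM GW7647, a synthetic agonist of the nuclear receptor PPARα, and the response at 72 h was set against the response at 6 h. The quantity described is a difference of differences. It is the level at 10 µM minus the level at 0 µM after 72 h, less the same difference after 6 h, on the log2 scale of the deposited array values, and it is called the growth of the response here. A positive growth means that treated cultures stood higher over their controls, or less far below them, at 72 h than at 6 h. The comparison separates genes whose change was already complete at 6 h from those that changed late. It was chosen by its labels and used 14 of the 100 arrays of the series: 4 at 6 h without GW7647, 3 at 6 h with 10 µM, 4 at 72 h without GW7647 and 3 at 72 h with 10 µM.

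Each array holds total RNA of a culture from 1 of 4 rats, Rs627, Rs628, Rs631 and Rs632. All groups shared plating on collagen IV, a Geltrex overlay and supplemented William E medium. The 6 h treated arrays came from Rs627, Rs631 and Rs632 and the 72 h treated arrays from Rs628, Rs631 and Rs632, so only Rs631 and Rs632 had all 4 arrays. Strain, age and sex of the rats, and a vehicle for the 0 µM cultures, are not given in the sources used here.

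PPARα is activated by fatty acids and by drugs of the fibrate class. Together with a retinoid X receptor it binds direct repeats of a short half-site spaced by a single base, known as DR1 elements, and in liver it switches on genes for fatty acid uptake, mitochondrial and peroxisomal β-oxidation, microsomal ω-hydroxylation and ketone body synthesis, as in fasting. Hepatocytes kept in culture are also known to spread, to build up actin fibres and to lose cytochromes P450 and other liver functions with time.

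1 of the 14 arrays stood apart. The 6 h treated array of Rs627 had a 75th percentile of 6.42 on the log2 scale, against 7.26 and 7.25 in the 2 other arrays of its group and 7.18 to 7.26 in the 6 h controls. Its plate position is one that the labels give to more than 1 array of the series. The median change over all 8843 genes tested at 6 h was -0.19 with this array and 0.01 after the 5 arrays of low signal in the series were left out, and the median growth was 0.14 and -0.06. Counts, and the results they change, are therefore also given without those arrays, which leaves 2 treated arrays at 6 h. The log difference between 3′ and 5′ probe sets of β-actin, a measure of RNA integrity, ran from 1.75 to 1.98 in the 72 h treated arrays and from 1.42 to 1.83 in the 72 h controls, and from 1.58 to 1.66 and 1.34 to 1.82 at 6 h; its part in the results was not tested. Alb, the defining product of hepatocytes, measured 13.64 to 13.74 in the 14 arrays. Each of the 20 measured hepatocyte markers exceeded 5 (log2) on at least 1 array, but Cyp2e1 on none of the controls. Their summed level lay between 16.32 and 16.45 (log2) in the 6 h treated arrays and 16.34 and 16.45 in the 6 h controls. At 72 h it lay between 16.02 and 16.19 in treated arrays, below the controls at 16.28 to 16.34; its part in the results was not tested. All 8 measured markers of endothelium, among them Pecam1 and Stab2, lay at or under 5 in all 14 arrays, as did 11 of 14 of macrophages, among them Ptprc and Csf1r.

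The response to 10 µM widened between 6 and 72 h. At 6 h, 138 genes were higher (1.56%) and 242 lower (2.74%) than in controls (4.3% of the genes tested passed), and at 72 h 1101 were higher (12.5%) and 1376 lower (15.6%), 28% in all. The growth itself passed the test in 850 genes (9.61%), 597 upward (6.75%) and 253 downward (2.86%). In both rats with all 4 arrays the sign was that of the fit for 586 of the 597 and for 253 of the 253. Their arrays are part of the fit that picked these genes, so the match is no separate support. Tests are from a linear model over all arrays (limma) with Benjamini-Hochberg adjustment over all genes at 0.05. Without the arrays of low signal the growth passed in 320 genes upward (3.66%) and 368 downward (4.21%), 7.88% in all, of which 312 and 226 also passed with them. In that fit 145 genes were higher at 6 h (1.66%) and only 19 lower (0.218%). Quantile normalization moved the split to 544 upward and 439 downward for the growth and to 214 higher and 175 lower at 6 h. With the rat as a block the growth passed in 1372 genes upward (15.5%) and 749 downward (8.47%), and at 6 h 254 genes were higher and 1028 lower. List counts given below for the rat block are to be read beside these shares. Without Rs627 the growth passed in 170 genes upward, and without Rs632 in 382 upward and 101 downward. The 6 h falls numbered 6 without Rs627 and 975 without Rs631.

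Genes were sorted by the 3 tests. Late genes passed for growth and at 72 h in the same direction but not at 6 h; they numbered 457 rises and 240 falls (7.88% of genes tested). Genes that passed at both times and grew further in the same direction numbered 49 rises and 5 falls (0.611%). A gene was taken as complete at 6 h where the 6 h change passed, the growth did not, and the 95% interval of the growth lay within 1 log2 unit of 0; this held for 57 rises and 142 falls (2.25%). A further 28 rises and 66 falls passed at 6 h with a growth too uncertain to place. Genes whose 6 h change shrank or turned by 72 h are called receded, 4 after a rise and 29 after a fall. Without the arrays of low signal, 249 of the 457 late rises, 216 of the 240 late falls, 36 of the 49 rises grown further and 37 of the 57 complete rises kept their class, but only 11 of the 142 complete falls and 2 of the 29 receded falls did. Under the rat block there were 1522 late genes, 207 grown further, 688 complete and 224 receded. There 44 of the 57 complete rises and 126 of the 142 complete falls kept their class.

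**Figure D1:**
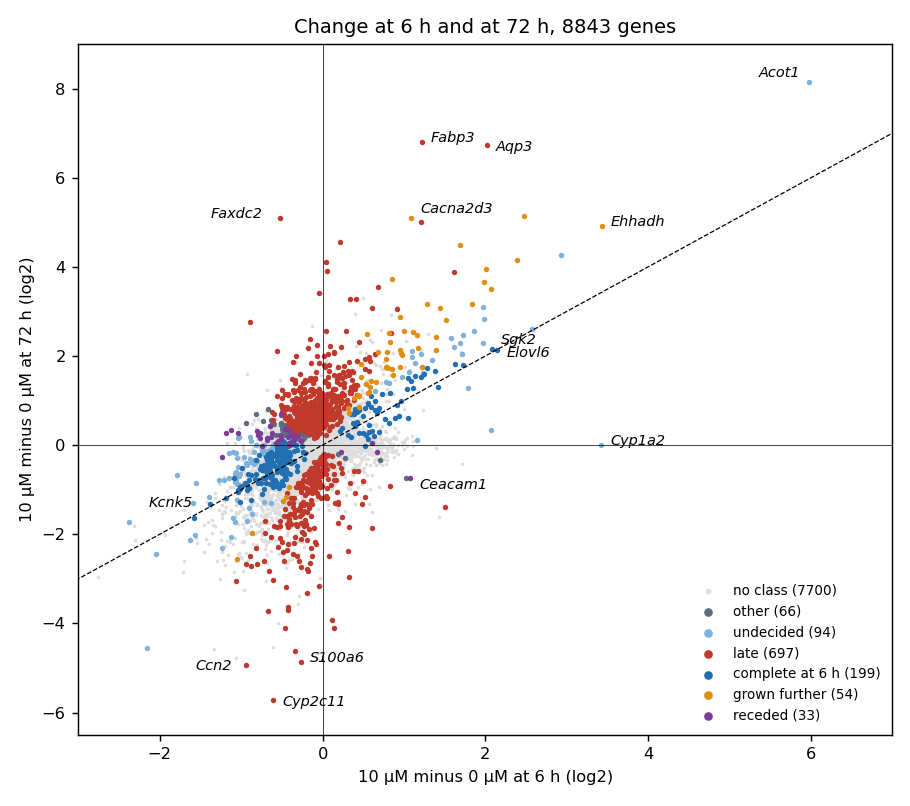
Each point is 1 of 8843 genes, placed by its 10 µM minus 0 µM difference at 6 h (horizontal axis, log2) and at 72 h (vertical axis, log2) and coloured by class from the fit with all arrays; the dashed line marks equal changes at both times. Late genes such as Fabp3 and Ccn2 lie farther from 0 at 72 h than at 6 h, where their changes did not pass. Elovl6, classed as complete, lies on the line, while other complete genes such as Acot2 and Hsdl2 lie above it. Of the 142 complete falls at lower left, 11 kept their class without the arrays of low signal.

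The largest rises classed as complete at 6 h were those of Elovl6, Sgk2 and Pctp. Elovl6 (NCBI gene 171402), which elongates long-chain fatty acids, measured 8.32, 8.86, 7.99 and 8.04 at 6 h without GW7647, 10.47, 10.21 and 10.68 at 6 h with 10 µM, 8.01, 8.13, 7.96 and 7.81 at 72 h without it and 10.27, 9.83 and 10.27 at 72 h with 10 µM. Every treated array lay above every control at both times, and the treated levels at the 2 times overlapped. On the log2 scale the change was 2.15 at 6 h and 2.14 at 72 h, or 4.42-fold at both times. The growth was 0.00 with a 95% interval from -0.81 to 0.81. Pctp, a phosphatidylcholine transfer protein, measured 8.56, 8.28, 8.33 and 8.67 at 6 h without and 10.29, 9.61 and 10.65 with GW7647, and 8.62, 8.15, 8.29 and 8.50 at 72 h without and 10.26, 9.87 and 10.41 with it. Here too the groups with and without GW7647 did not overlap, and the growth was 0.07 (interval -0.64 to 0.77). Sgk2, a serum- and glucocorticoid-regulated kinase, changed by 2.09 ± 0.27 (SE, adjusted p = 3.14e-08) at 6 h and 2.16 at 72 h.

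Other rises that were complete at 6 h include textbook targets of PPARα. Cpt2, the inner-membrane carnitine palmitoyltransferase, measured 9.84, 10.01, 9.79 and 9.84 at 6 h without and 11.06, 11.20 and 11.06 with GW7647, and 9.79, 9.02, 9.80 and 9.86 at 72 h without and 11.17, 11.29 and 11.18 with it; its growth of 0.35 did not pass (adjusted p = 0.345). Plin2, the coat protein of lipid droplets, measured 12.60, 12.38, 12.48 and 12.51 at 6 h without and 13.09, 13.21 and 13.19 with GW7647, and 12.25, 11.96, 12.32 and 12.34 at 72 h without and 12.91, 12.99 and 12.93 with it. The Plin2 change was 0.67 at 6 h and 0.72 at 72 h, and its growth interval ran from -0.17 to 0.28. Changes at 6 and 72 h were 0.96 and 0.99 for Angptl4, a secreted inhibitor of lipoprotein lipase. They were 1.63 and 1.82 for Txnip, an arrestin-like protein that restrains glucose uptake, and 1.03 and 1.25 for Creb3l3, a membrane-bound transcription factor of fasting. Corresponding pairs were 1.28 and 1.74 for the thioesterase Acot2, 1.38 and 1.67 for the ω-hydroxylase Cyp4a3, 1.14 and 1.54 for the peroxisomal protein Hsdl2, 1.21 and 1.53 for the ubiquitin ligase subunit Fbxo21, and 1.42 and 1.29 for the transporter Slc22a23. The 6 h call of each gene in this and the preceding paragraph also passed without the arrays of low signal.

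Of the 142 falls classed as complete, 13 kept the 6 h call without the arrays of low signal. Kcnk5, a potassium channel, measured 7.15, 6.92, 6.85 and 6.79 at 6 h without and 5.80, 5.72 and 5.11 with GW7647, and 7.0, 6.77, 7.06 and 6.86 at 72 h without and 5.80, 5.82 and 5.21 with it. All treated arrays lay below all controls, and the change was -1.39 at 6 h and -1.31 at 72 h (growth 0.07, interval -0.54 to 0.69). Kcnk5 was one of them, at -1.52. Edn1, the vasoconstrictor peptide endothelin, and Jun, a subunit of the transcription factor AP-1, fell at 6 h by 1.58 and 1.09 and stood at -1.63 and -0.75 at 72 h; without those arrays the 6 h changes were -1.38 (adjusted p = 0.0235) and -1.12 (adjusted p = 0.00711). Bambi, Id4, Sesn1, Tmem19 and Fam114a1 lost the 6 h call without them, with changes of -0.78, -0.70, -0.44, -0.55 and -0.73. Ivns1abp and Hes6 kept it at -1.0 and -0.71.

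Ceacam1, a cell adhesion molecule that takes part in insulin clearance by hepatocytes, turned from a rise into a fall. It measured 9.09, 8.98, 9.22 and 8.88 at 6 h without and 10.07, 9.80 and 10.48 with GW7647, and 8.78, 8.78, 9.18 and 8.78 at 72 h without and 7.83, 8.21 and 8.40 with it. The 6 h treated arrays all lay above the 6 h controls and the 72 h treated arrays all below the 72 h controls. The change was 1.07 ± 0.23 (SE, adjusted p = 0.00131) at 6 h and -0.73 ± 0.23 (SE, adjusted p = 0.0104) at 72 h, and the growth was -1.80 ± 0.32 (SE, adjusted p = 4.01e-05); without the arrays of low signal it was -1.83. Of its 3 probe sets, 1 passed for growth. Cyp1a2, a cytochrome P450 induced through the aryl hydrocarbon receptor, had values above its controls at 6 h and not at 72 h. At 12 h it read 7.97, 7.56 and 8.83 with 10 µM and 4.10, 4.60 and 5.27 without. At 24 h it read 6.95, 4.44 and 7.55 with 10 µM, the 4.44 from an array of low signal, and 4.19, 4.99 and 5.08 without. It measured 5.63, 3.84, 5.32 and 4.64 at 6 h without and 8.24, 8.38 and 8.20 with GW7647, and 5.75, 3.85, 4.66 and 4.88 at 72 h without and 5.14, 3.62 and 5.63 with it. Its 6 h rise was 3.42 ± 0.96 (SE, adjusted p = 0.0245), but 3.43 with an adjusted p of 0.104 without the arrays of low signal, and the growth was -3.41 ± 1.36 (SE, adjusted p = 0.0992). Zdhhc2, Rbl2, Srr, Irs2, Rem2, Cped1 and Dnajc30, all receded after a 6 h fall, lost that fall without the arrays of low signal; Sec16b and Zfp771 kept it at -0.98 and -0.51.

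**Figure D2:**
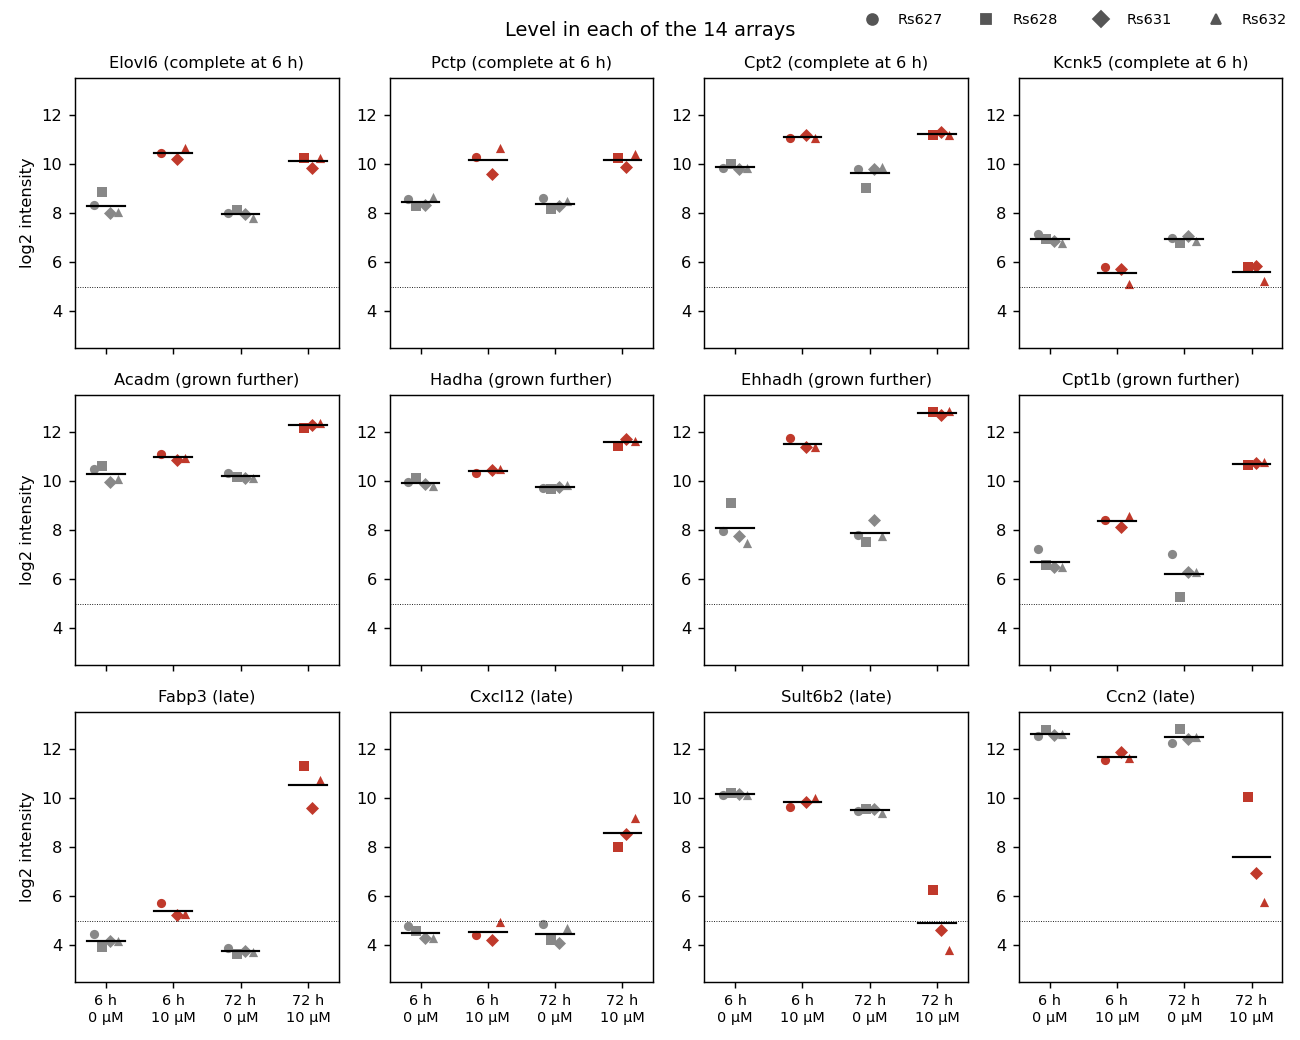
Points give the log2 intensity of 12 genes in each of the 14 arrays, by time and concentration (horizontal axis), with a symbol for each rat, a bar at the group mean and a dotted line at the floor of 5. Elovl6, Pctp, Cpt2 and Kcnk5 have treated levels that overlap between the times, Acadm, Hadha, Ehhadh and Cpt1b move further by 72 h, and Fabp3, Cxcl12, Sult6b2 and Ccn2 stand apart from their controls mainly at 72 h.

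Mitochondrial β-oxidation was already raised at 6 h and grew further as a group. Of 22 tested members, 14 were higher at 6 h and all 22 at 72 h; 17 passed for growth upward and 0 downward, against 6.75% and 2.86% of all genes, and the counts were 17 upward and 0 downward without the arrays of low signal. The median change over the members was 0.58 at 6 h and 1.52 at 72 h, and the median growth was 0.80, beside 0.14 over all genes. Acadm, the medium-chain acyl-CoA dehydrogenase, measured 10.48, 10.63, 9.96 and 10.10 at 6 h without and 11.11, 10.86 and 10.93 with GW7647, and 10.35, 10.16, 10.15 and 10.12 at 72 h without and 12.18, 12.29 and 12.38 with it. Its treated arrays lay above the controls at both times and those of 72 h above those of 6 h, with a growth of 1.42 ± 0.23 (SE, adjusted p = 9.04e-06). Its 6 h rise of 0.67 lost the call without the arrays of low signal (adjusted p = 0.0738). Hadha, the α subunit of the trifunctional protein that completes long-chain oxidation, measured 9.95, 10.13, 9.88 and 9.81 at 6 h without and 10.31, 10.45 and 10.48 with GW7647, and 9.70, 9.69, 9.78 and 9.85 at 72 h without and 11.43, 11.70 and 11.63 with it, a growth of 1.36 ± 0.13 (SE, adjusted p = 4.45e-12). For Hadha 1 of 2 probe sets passed; no probe set of a list gene passed for growth against the direction of the one reported.

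The carnitine shuttle was split between these patterns. Cpt1b, known as the muscle form of the outer-membrane carnitine palmitoyltransferase, measured 7.22, 6.57, 6.50 and 6.47 at 6 h without and 8.42, 8.13 and 8.58 with GW7647, and 7.02, 5.29, 6.28 and 6.30 at 72 h without and 10.64, 10.74 and 10.77 with it. It passed at both times, rose 3.22-fold at 6 h and 22.6-fold at 72 h, and had the largest growth of the list at 2.81 ± 0.53 (SE, adjusted p = 9.48e-05). Cpt1a, the liver form, changed by 1.72 ± 0.26 (SE, adjusted p = 1.46e-06) at 6 h and 2.04 at 72 h, and its growth of 0.32 (interval -0.41 to 1.05) left the class undecided. Crat, carnitine acetyltransferase, and Slc25a20, the carnitine-acylcarnitine carrier, grew by 1.67 and 1.04 on top of 1.98 and 0.98 at 6 h. Slc22a5, the plasma membrane carnitine transporter, rose by 1.58 at 6 h with a growth of 0.83 that did not pass (adjusted p = 0.0626). Late members were Acad10 (1.86), Acads, the short-chain dehydrogenase (1.36), Echs1 (0.84), Etfb (0.80), Decr1 (0.70) and Etfa (0.26), of which the 6 h changes lay between -0.38 and 0.42. Acadl and Etfdh rose at 72 h (0.38 and 0.90) but passed neither at 6 h nor for growth.

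Of 14 tested genes of peroxisomal oxidation, 6 were higher and 1 lower at 6 h, and 12 were higher at 72 h. The shares over all genes were 1.56%, 2.74% and 12.5%. For growth they were 6.75% upward and 2.86% downward (15.5% and 8.47% with the block). Ehhadh, the peroxisomal bifunctional enzyme, measured 7.94, 9.13, 7.76 and 7.49 at 6 h without and 11.76, 11.39 and 11.38 with GW7647, and 7.81, 7.53, 8.41 and 7.77 at 72 h without and 12.81, 12.71 and 12.88 with it. It rose 10.8-fold at 6 h and 30.2-fold at 72 h, with a growth of 1.49 ± 0.37 (SE, adjusted p = 0.00443). Hacl1, which removes single carbons in α-oxidation, grew by 1.44 from 2.06 at 6 h, and Acot8, a peroxisomal thioesterase, was late: it measured 7.32, 7.54, 7.40 and 7.58 at 6 h without and 7.28, 7.84 and 8.12 with GW7647, and 7.29, 7.38, 7.76 and 7.51 at 72 h without and 9.92, 9.89 and 10.32 with it, a growth of 2.28 ± 0.20 (SE, adjusted p = 7.28e-14). Without the arrays of low signal its 6 h change passed (adjusted p = 0.0141). In the list of peroxisomal oxidation 7 passed for growth upward and 0 downward (rat block 12 and 0), out of 14 tested (6 upward and 0 downward without the arrays of low signal; median growth 0.58). Peroxins, which build and divide the organelle, comprised 6 late genes and 2 grown further: 8 passed for growth upward and 0 downward, out of 13 tested (5 upward and 0 downward without those arrays; median 0.81), among them Pex19 (1.94), Pex3 (1.31), Pex16 (1.15) and Pex5 (1.02). Pex11g, Pex6 and Pex14 lost the call without the arrays of low signal. Pex11a, which drives peroxisome division, stood at 1.73 at 6 h and 2.47 at 72 h and did not pass for growth (adjusted p = 0.341).

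Other lipid genes were placed as follows, where 6.75% of all genes grew upward and 2.86% downward (15.5% and 8.47% with the block). Among acyl-CoA thioesterases, which release free fatty acids, 2 passed for growth upward and 0 downward (rat block 4 and 0), out of 6 tested: Acot7 grew by 1.87 and Acot12 by 1.31. Acot1 had the largest change of any list member at 6 h. It measured 5.39, 7.44, 3.27 and 3.91 at 6 h without and 11.14, 10.84 and 10.95 with GW7647, and 4.98, 4.24, 3.70 and 3.17 at 72 h without and 12.28, 12.22 and 12.00 with it, and its control arrays spread over 3.27 to 7.44. The change was 5.97 at 6 h and 8.14 at 72 h, 38.6-fold at 6 h with values under 5 set to 5 and at least 144-fold at 72 h, where all controls lay under the floor, and the growth of 2.17 did not pass (adjusted p = 0.161). For lipid droplets and lipolysis 3 passed for growth upward and 0 downward (rat block 5 and 0), out of 13 tested: Cidea (1.42), a droplet protein, Mgll (1.18), monoglyceride lipase, and Pnpla2 (1.00), adipose triglyceride lipase. In microsomal ω-oxidation 2 passed for growth upward and 0 downward, out of 7 tested, Por (1.30), the electron donor of cytochromes P450, and Cyp4f4 (1.38), which lost the call without the arrays of low signal. Cyp4a1, the classic ω-hydroxylase induced by PPARα ligands, changed by 1.97 at 6 h and 3.09 at 72 h (growth 1.12, adjusted p = 0.0652). In ketone body metabolism 1 passed for growth upward and 0 downward, out of 6 tested: Acat1, mitochondrial thiolase, at 1.44 ± 0.16 (SE, adjusted p = 6.79e-10).

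Among fatty acid binding proteins Fabp3 was late, and Fabp1 rose early and was classed as grown further in the fit with all arrays. Fabp3, known as the heart form (NCBI gene 79131), measured 4.45, 3.91, 4.15 and 4.18 at 6 h without and 5.70, 5.23 and 5.25 with GW7647, and 3.88, 3.62, 3.74 and 3.72 at 72 h without and 11.31, 9.59 and 10.75 with it. All controls lay under the floor of 5, the 6 h treated arrays just above it and the 72 h treated arrays far above it. The growth was 5.59 ± 0.75 (SE, adjusted p = 8.46e-08), and at 72 h Fabp3 was at least 46.8-fold higher than in controls set to the floor. Fabp1, the liver form, measured 9.56, 9.48, 8.85 and 8.67 at 6 h without and 11.93, 11.36 and 11.30 with GW7647, and 9.69, 8.15, 8.88 and 8.39 at 72 h without and 12.99, 12.96 and 12.84 with it. It rose 5.23-fold at 6 h and 17.8-fold at 72 h, with a growth of 1.77 ± 0.60 (SE, adjusted p = 0.0456) (1.97 without the arrays of low signal, adjusted p = 0.0474). This growth call was lost in 8 of 15 alternatives, among them quantile normalization and leaving out Rs628, Rs631 or Rs632. The estimates ran from 1.41 to 2.13. In the list of uptake, binding and activation 6 passed for growth upward and 1 downward (rat block 8 and 2), out of 20 tested. Without the arrays of low signal 5 passed upward and 1 downward. Shares over all genes were 6.75% and 2.86% (15.5% and 8.47% with the block). Acsl1 and Acsl3, acyl-CoA synthetases, passed at 6 h (1.61 and 1.34) and not for growth, whereas Acsl4 fell late (-0.59). Cd36, the fatty acid translocase, stood at 0.53 at 6 h and 0.99 at 72 h and passed only at 72 h.

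The DR1 motif was looked for in the 250 bases before the start of each gene in RefSeq promoters (build GRCr8, 27457 promoters with unique symbols), spelled as the half-site AGGNCA repeated after any 1 base and read on both strands. It was in 97 of all promoters (0.353%), in 18 of the 7495 matched to tested genes (0.24%), and in 4 of the 443 matched to rises that were late or grown further (0.903%): Asgr1, Cyp2d3, Fabp1 and Gys2. Ceacam1, described above, held it too, as did Plpp1 among the 167 matched genes complete at 6 h. None of the 209 matched late or grown falls held it. The strict form, with AGGTCA as the half-site, was in 15 of all promoters and in none of these classes. Fabp1 and Gys2 are shown because both rose and the motif lies close to the start in each; Gys2, liver glycogen synthase, was picked for its motif after its values were seen. Capitals mark the motif, which in Fabp1 (chr4:104749090-104749339, plus strand) is the reverse complement and spans bases 77 to 65 before the start, and in Gys2 (chr4:177137237-177137486, minus strand) spans bases 80 to 68.
Fabp1: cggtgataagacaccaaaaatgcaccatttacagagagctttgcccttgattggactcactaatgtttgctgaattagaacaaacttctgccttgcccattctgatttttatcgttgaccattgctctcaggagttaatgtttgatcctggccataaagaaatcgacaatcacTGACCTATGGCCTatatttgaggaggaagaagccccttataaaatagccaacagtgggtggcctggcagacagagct
Gys2: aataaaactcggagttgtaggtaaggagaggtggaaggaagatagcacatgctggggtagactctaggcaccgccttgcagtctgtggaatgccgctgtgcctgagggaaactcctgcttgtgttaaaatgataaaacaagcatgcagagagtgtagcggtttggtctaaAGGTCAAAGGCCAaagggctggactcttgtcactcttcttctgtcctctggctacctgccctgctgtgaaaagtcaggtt
Gys2 measured 10.41, 10.25, 10.24 and 9.87 at 6 h without and 10.66, 10.37 and 10.32 with GW7647, and 10.22, 9.37, 10.24 and 10.08 at 72 h without and 10.82, 11.59 and 11.42 with it, a growth of 1.04 ± 0.32 (SE, adjusted p = 0.0226). A match describes the letters of the window and not a bound site.

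Glycerol handling held a pair of channels with large upward growth, Aqp3 and Aqp7. Their growth calls were lost in 3 and 6 of 15 alternatives. Aqp3, a water and glycerol channel, measured 3.31, 3.07, 2.95 and 3.10 at 6 h without and 6.10, 3.34 and 5.93 with GW7647, and 3.28, 3.23, 3.20 and 3.23 at 72 h without and 10.42, 9.0 and 10.48 with it. All controls lay under the floor, 2 of the 3 treated arrays at 6 h were above it, and at 72 h all 3 were far above, at least 31.2-fold over the floor; the growth was 4.71 ± 1.44 (SE, adjusted p = 0.0243). Aqp7, the glycerol channel best known from fat cells, measured 7.18, 6.57, 4.48 and 7.32 at 6 h without and 8.26, 6.14 and 8.39 with GW7647, and 7.19, 6.28, 4.61 and 7.25 at 72 h without and 11.39, 11.08 and 11.55 with it, with a growth of 3.80 ± 1.27 (SE, adjusted p = 0.0432) and treated arrays that overlapped the controls at 6 h and not at 72 h. Aqp9, the usual glycerol channel of hepatocytes, went the other way with 6.57, 6.6, 6.09 and 6.63 at 6 h without and 4.35, 6.18 and 6.44 with GW7647, and 6.13, 6.08, 6.22 and 6.56 at 72 h without and 4.18, 4.05 and 3.59 with it, a growth of -1.49 (-2.14 without the arrays of low signal). Gpd2, mitochondrial glycerol-3-phosphate dehydrogenase, and Fbp1, fructose bisphosphatase, grew further by 1.34 and 0.68; Pc, pyruvate carboxylase, was late at 2.32 ± 0.56 (SE, adjusted p = 0.00286). Gk, glycerol kinase, and Gpd1 rose at 6 h (1.99 and 1.1) and did not pass for growth. Slc2a2, the glucose transporter of hepatocytes, fell late (-1.08). In the glycerol and glucose list 6 passed for growth upward and 2 downward (rat block 10 and 3), out of 18 tested. Without the arrays of low signal 6 passed upward and 3 downward of 17 tested. Beside them, 6.75% of all genes grew upward and 2.86% downward (15.5% and 8.47% with the block).

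Among fuel switch genes and fasting signals 4 passed for growth upward and 1 downward (rat block 7 and 2), out of 19 tested. A further 4 were complete at 6 h and 2 undecided, beside 2.25% and 1.06% of all genes. The growth passed upward in 6.75% of all genes and downward in 2.86% (15.5% and 8.47% with the block). Pdk4, the kinase that closes pyruvate dehydrogenase, measured 9.86, 10.39, 8.65 and 8.32 at 6 h without and 12.54, 12.19 and 11.96 with GW7647, and 8.87, 8.63, 8.28 and 7.56 at 72 h without and 12.56, 12.66 and 12.61 with it; it rose 7.59-fold at 6 h and 19.4-fold at 72 h and its growth of 1.35 did not pass (adjusted p = 0.187). Ucp3, a mitochondrial carrier best known from muscle, was late (1.98 ± 0.50 SE, adjusted p = 0.00462), as were Angptl8 (1.1), Ppargc1b (1.06) and Sirt3 (1.30), the last pair only with the arrays of low signal; Arrdc4, an arrestin related to Txnip, fell (-1.27). Fgf21, a fasting hormone of liver, stood at 0.81 at 6 h and 0.99 at 72 h with no call for growth. In lipogenesis 3 passed for growth upward and 0 downward (rat block 8 and 0), out of 21 tested: Fads2, Δ6 desaturase, at 2.52 ± 0.46 (SE, adjusted p = 4.66e-05), Dgat1, which makes triglyceride, at 1.39 ± 0.23 (SE, adjusted p = 6.35e-06), and Agpat2 at 1.05. For PPARs and partners 8 passed for growth upward and 0 downward (rat block 13 and 0), out of 21 tested, among them Ephx2 (1.56), soluble epoxide hydrolase, Nudt7 (1.29), a peroxisomal coenzyme A hydrolase, Pank1 (1.04), pantothenate kinase, and Vnn1 (0.87), pantetheinase. Ppara itself was low in all 14 arrays (4.13 to 5.74) and did not pass for growth (adjusted p = 0.0692). Of 6 tested genes typical of fat cells, 3 grew upward, Aqp7, Cidea and Pnpla2; Cidec and Fabp4 stood at 0.05 and -0.64 and did not pass.

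The largest growth of all was in genes that are not core members of fatty acid oxidation. Faxdc2, which carries a fatty acid hydroxylase domain, measured 5.81, 6.19, 4.25 and 3.97 at 6 h without and 5.14, 4.35 and 4.08 with GW7647, and 5.40, 5.72, 3.63 and 3.51 at 72 h without and 8.66, 10.49 and 9.83 with it. Control arrays of Rs627 and Rs628 lay above those of Rs631 and Rs632 at both times, and all 72 h treated arrays lay above all of them; the growth was 5.62 ± 1.07 (SE, adjusted p = 1.03e-04), and 4.83 with values under 5 set to 5. Adig, adipogenin, known from fat cells, measured 4.32, 4.40, 4.33 and 3.80 at 6 h without and 3.96, 4.80 and 4.51 with GW7647, and 4.31, 4.52, 4.74 and 4.59 at 72 h without and 9.72, 9.04 and 8.54 with it. It was under the floor everywhere but in the 72 h treated arrays, where it was at least 17.1-fold higher (growth 4.35 ± 0.58 SE, adjusted p = 8.09e-08). Cxcl12, a chemokine, measured 4.78, 4.56, 4.30 and 4.29 at 6 h without and 4.42, 4.21 and 4.96 with GW7647, and 4.86, 4.22, 4.07 and 4.70 at 72 h without and 8.0, 8.55 and 9.19 with it, at least 12-fold over the floor at 72 h (growth 4.07 ± 0.74 SE, adjusted p = 5.08e-05). Cacna2d3, an auxiliary calcium channel subunit, had passed at 6 h already (1.09) at levels around the floor, and grew by 4.01 ± 0.36 (SE, adjusted p = 1.60e-13). Growth was 2.95 for the zinc finger protein Zfp503, 2.88 for Abhd1, 2.88 for the kinetochore protein Spc24 and 2.86 for Pkhd1l1. Each of these passed without the arrays of low signal as well, between 2.59 and 5.93.

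**Figure D3:**
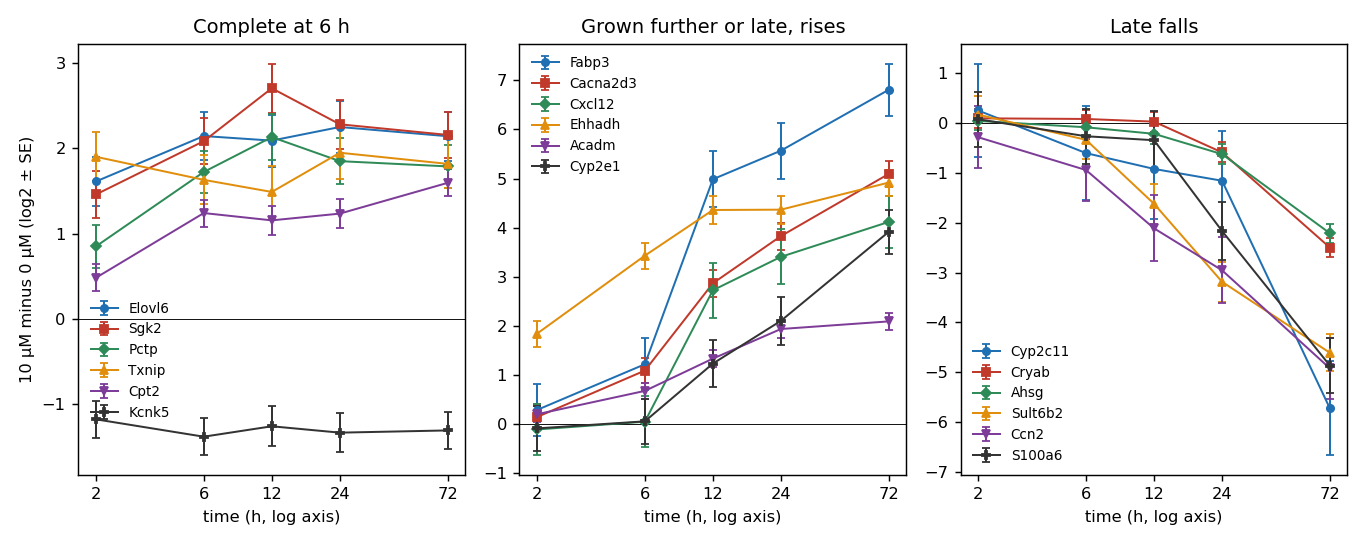
The 10 µM minus 0 µM difference (vertical axis, log2, with its SE) is drawn over 2, 6, 12, 24 and 72 h (log axis), from the fit without the rat block, for 6 genes complete at 6 h, 6 rises that were late or grown further and 6 late falls. Elovl6 and Kcnk5 stay level from 6 h on, Fabp3 reaches 4.98 at 12 h, and Cyp2c11, Cryab and Ahsg leave 0 mainly after 24 h.

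Of 22 tested genes of xenobiotic metabolism, 10 were higher and 4 lower at 72 h, and 10 were classed late. Over all genes 12.5% were higher, 15.6% lower and 7.88% late, so the lower count is near its share. The growth passed upward in 6.75% of all genes and downward in 2.86% (15.5% and 8.47% with the block). Cyp2e1, which oxidises ethanol, measured 4.68, 4.91, 4.45 and 4.91 at 6 h without and 4.02, 5.19 and 5.17 with GW7647, and 4.33, 3.89, 4.44 and 4.35 at 72 h without and 6.25, 8.54 and 9.71 with it. Its controls lay under the floor, and the 72 h treated array of Rs628 was the lowest of its group; the growth was 3.86 ± 0.64 (SE, adjusted p = 9.20e-06). Cyp2c13 and Cyp8b1, the sterol 12α-hydroxylase of bile acid synthesis, grew by 3.65 ± 0.69 (SE, adjusted p = 9.26e-05) and 3.45 ± 0.56 (SE, adjusted p = 6.57e-06). Cyp2c11, the main male-specific cytochrome P450 of rat liver, fell from 9.40, 10.24, 10.88 and 7.99 in the 72 h controls to 4.32, 4.42 and 2.97 in the treated arrays, all under the floor, at least 24.7-fold. At 6 h its arrays read 9.79, 10.78, 11.21 and 8.72 without and 9.16, 11.02 and 8.38 with 10 µM, which overlap, and the growth was -5.12 ± 1.33 (SE, adjusted p = 0.0058). In the xenobiotic list 7 passed for growth upward and 3 downward (rat block 9 and 6), out of 22 tested; upward calls included Cyp3a18 (2.22) and Cyp2c22 (0.49), and Cyp2j4, Nr1i2 and Cyp2d4 lost the call without the arrays of low signal (5 upward and 3 downward then). The other falls were Ugt2b1 (-1.18) and Gstm1 (-0.38). Probe sets of close relatives such as the Cyp2c genes may share targets, which was not tested.

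In amino acid metabolism 4 passed for growth upward and 1 downward (rat block 14 and 3), out of 27 tested. Without the arrays of low signal 4 passed upward and 2 downward. Shares over all genes were 6.75% upward and 2.86% downward (15.5% and 8.47% with the block). Gpt, alanine aminotransferase, grew by 2.33 ± 0.64 (SE, adjusted p = 0.0104), and Cbs, cystathionine β-synthase, by 1.88 ± 0.27 (SE, adjusted p = 4.65e-07). Fah and Arg1 grew by 0.67 and 0.37. Ass1, argininosuccinate synthetase of the urea cycle, fell late: it measured 11.18, 11.23, 11.55 and 11.38 at 6 h without and 11, 11.37 and 10.96 with GW7647, and 10.84, 11.05, 11.55 and 11.31 at 72 h without and 9.12, 9.35 and 9.15 with it, and the treated arrays lay below all controls at 72 h only (growth -1.76 ± 0.31 SE, adjusted p = 2.29e-05). Abcc2, the canalicular export pump, fell too, from 10.09, 9.64, 10.66 and 10.26 to 7.04, 8.11 and 6.89 at 72 h (growth -2.64 ± 0.57 SE, adjusted p = 6.42e-04).

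Genes of cytoskeleton, adhesion and matrix, which cultured hepatocytes are known to raise as they spread, held late falls and no rises. Of 40 tested, 0 passed at 6 h and 28 were lower at 72 h, where 15.6% of all genes were. For growth 13 passed downward and 0 upward, where 2.86% of all genes had downward growth. Without the arrays of low signal 12 passed downward and 0 upward, beside 4.21% of all genes downward. With the rat as a block 26 passed downward, beside 8.47% of all genes. The median growth was -0.88, beside 0.14 over all genes. Ccn2, a matrix protein known as connective tissue growth factor (NCBI gene 64032), measured 12.55, 12.79, 12.57 and 12.63 at 6 h without and 11.57, 11.88 and 11.63 with GW7647, and 12.27, 12.84, 12.41 and 12.48 at 72 h without and 10.04, 6.93 and 5.74 with it. Treated arrays lay below all controls at both times, but the 6 h change of -0.94 did not pass and the growth was -3.98 ± 0.87 (SE, adjusted p = 8.83e-04). S100a6, a calcium-binding protein, measured 10.22, 10.35, 10.47 and 10.54 at 6 h without and 9.83, 10.33 and 10.23 with GW7647, and 9.66, 10.97, 9.93 and 10.07 at 72 h without and 7.42, 4.32 and 4.14 with it, a growth of -4.60 ± 0.78 (SE, adjusted p = 1.37e-05). The 72 h treated array of Rs628 was the highest of its group for both genes, and also for Anxa3, Tmsb4x, S100a11 and Flna; Rs628 has no treated array at 6 h.

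Ccn2 is a standard target of the transcription factor YAP with its partner TEAD, whose binding motif contains GGAATG. This word, read on both strands, occurred at least once in 11.8% of all RefSeq promoters over the 250 bases before the start and in 9.9% of those matched to tested genes. The share was 14.8% of the 209 matched to late or grown falls, 11.3% of late or grown rises and 12.6% of genes complete at 6 h. It occurred 3 or more times in 25 promoters in all (0.0911%) and in 3 of those falls. The Ccn2 window (chr1:22624615-22624864, minus strand, GRCr8) is shown because it holds the word 3 times, in capitals, beginning 166, 101 and 92 bases before the start.
Ccn2: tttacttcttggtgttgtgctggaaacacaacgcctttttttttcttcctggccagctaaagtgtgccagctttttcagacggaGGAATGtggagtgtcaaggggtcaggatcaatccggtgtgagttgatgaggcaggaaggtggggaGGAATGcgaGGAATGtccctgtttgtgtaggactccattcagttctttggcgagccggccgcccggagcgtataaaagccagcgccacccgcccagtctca
These are matches of letters only.

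Large late falls also lay outside that list. Sult6b2, a sulfotransferase, measured 10.13, 10.22, 10.16 and 10.15 at 6 h without and 9.64, 9.86 and 9.99 with GW7647, and 9.48, 9.54, 9.56 and 9.40 at 72 h without and 6.25, 4.63 and 3.78 with it, with a growth of -4.27 ± 0.53 (SE, adjusted p = 9.84e-09). Gpnmb, a transmembrane glycoprotein, measured 11.13, 9.51, 11.09 and 10.36 at 6 h without and 10.83, 10.88 and 10.27 with GW7647, and 10.83, 9.16, 10.53 and 9.94 at 72 h without and 6.11, 5.89 and 6.03 with it, a growth of -4.24 ± 0.71 (SE, adjusted p = 9.75e-06), and its 3 treated arrays at 72 h lay within 5.89 to 6.11. Growth was -4.03 for Tsx, -3.65 for the phospholipase Pla1a, -3.28 for Popdc2, -3.21 for the galactosyltransferase B4galt5, -3.12 for the growth factor Tgfb2, -3.05 for the calcineurin regulator Rcan1 and -2.73 for Sh3bgr. All of these passed without the arrays of low signal. Anxa3, an annexin of the cytoskeleton list, had a growth of -3.13 and passed with 1 of its 3 probe sets.

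In the NRF2 response, the antioxidant programme, 0 passed for growth upward and 4 downward, out of 15 tested. The counts were 0 and 4 without the arrays of low signal, and the median growth was -0.30. Downward growth passed in 2.86% of all genes, and in 4.21% without those arrays. Nqo1, a quinone reductase, measured 10.21, 8.04, 9.08 and 9.66 at 6 h without and 10.93, 10.02 and 11.29 with GW7647, and 9.65, 8.09, 8.51 and 9.01 at 72 h without and 6.67, 7.64 and 7.98 with it. It stood 1.5 above controls at 6 h, which did not pass, and -1.39 at 72 h, which did; the growth was -2.89 ± 0.76 (SE, adjusted p = 0.00653). Gstp1, a glutathione transferase that dedifferentiating hepatocytes are known to gain, fell from 11.08, 11.12, 10.97 and 9.43 to 7.79, 7.27 and 8.0 at 72 h (growth -3.29 ± 0.91 SE, adjusted p = 0.0104). Srxn1, sulfiredoxin, and Osgin1 had a growth of -1.85 and -1.23.

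Markers of other cell types were set beside these falls. The summed level of 12 measured stellate cell and fibroblast markers ranged from 8.56 to 8.76 (log2) in the 72 h treated arrays and from 8.51 to 11.5 in the 72 h controls, and from 8.61 to 9.02 and 8.74 to 10.7 at 6 h. Des, Col1a1, Lrat, Lum and Postn lay at or under 5 in all 14 arrays; Col1a2 passed for growth (-0.79), a call lost without the arrays of low signal, and Acta2 and Tagln, which are also in the cytoskeleton list, stood at -0.59 and -1.16 and did not pass. Of 3 tested macrophage markers Lyz2 fell (-1.92), Cd14 rose (1.37, lost without the arrays of low signal) and Cd68 stood at -0.44. None of the 5 tested bile duct markers passed for growth, and 1 did downward under the rat block. Their median change at 72 h was -0.75. From 6 to 24 h their median was 0.58. From 24 to 72 h it was -1.04 with all 5 negative, where 38.4% of all genes were. Rs628 is among the 24 h treated arrays and not among the 24 h controls. Krt7 read 5.83 in the 24 h treated array of Rs628, against 4.61 and 3.53 in Rs631 and Rs632. The part of the rats in this split was not tested. The sum over 8 measured markers ran from 9.52 to 10.3 in the 72 h treated arrays and from 9.88 to 11.4 in the controls. Sox9, Cftr and Muc1 lay at or under 5 in all 14 arrays. The part of other cells in the falls was not tested. In such bulk samples fewer cells of a type and less RNA per cell cannot be told apart.

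**Figure D4:**
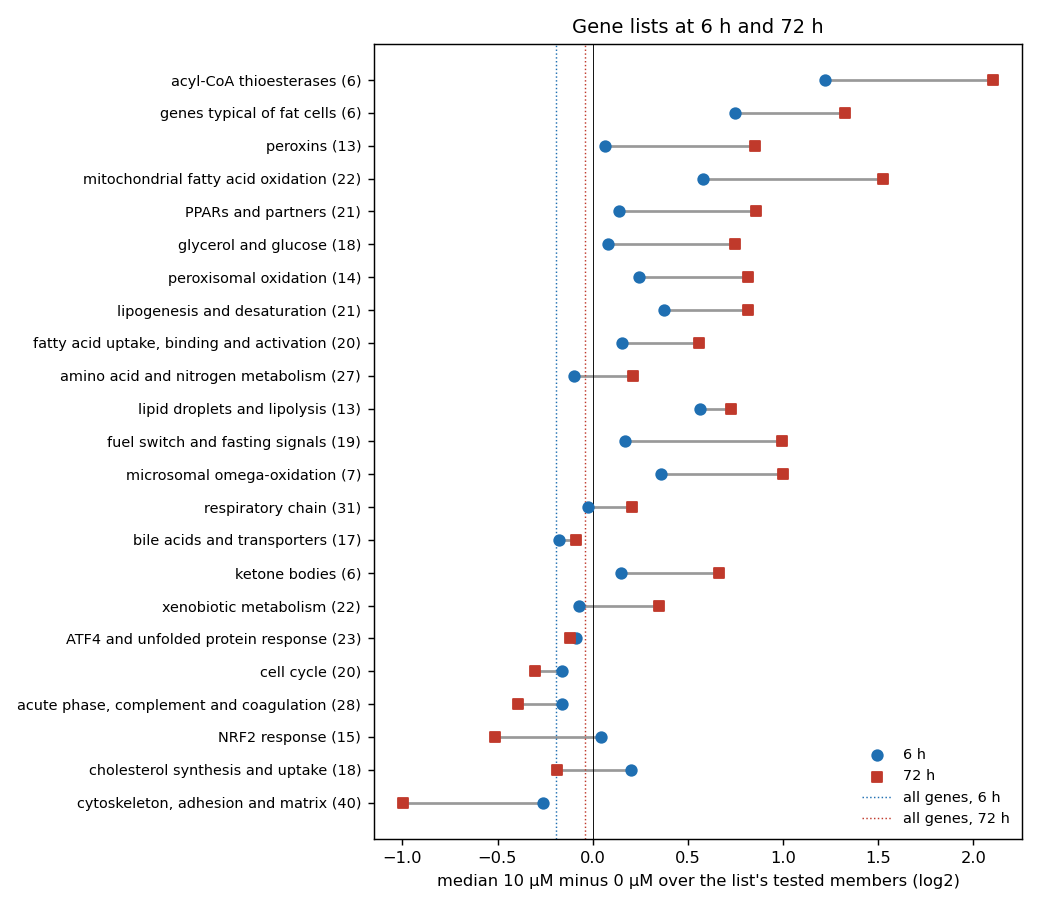
Each row is 1 of 23 gene lists (number of tested members in brackets), with the median 10 µM minus 0 µM difference (log2) at 6 h (circle) and 72 h (square); dotted lines give the medians over all genes, -0.19 and -0.04. The lists of β-oxidation lie right of both lines at 6 h already and move further right, from 0.58 to 1.52 for the mitochondrial list, while the cytoskeleton list moves left, from -0.26 to -0.99.

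The change over time within each arm was set beside the growth. Of the 597 genes that grew upward, 466 were also higher at 72 h than at 6 h within the 10 µM arrays, where 9.15% of all genes were. Within the 0 µM arrays 132 of the 597 were lower at 72 h, where 20.5% of all genes were. Of the 253 that grew downward, 252 were lower at 72 h within the 10 µM arrays, where 21.2% of all genes were. The growth is the treated drift less the untreated drift. Genes picked by growth therefore lean this way, and these counts describe them without being separate support. Median drifts were 0.65 treated and -0.21 untreated for the upward genes and -1.20 and -0.22 for the downward ones. Drift over time moves with the scaling of the arrays: in the 0 µM arrays 29 genes were higher (0.328%) and 1809 lower at 72 h as deposited, but 45 and 70 after quantile normalization, and 3324 genes passed under the rat block. The corresponding counts in the 10 µM arrays were 809 and 1878 as deposited (30.4% of genes), 1540 and 1452 after quantile normalization and 1403 and 922 after median centring.

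The 24 h arrays, 3 at 0 µM and 3 at 10 µM, divide the interval. From 6 to 24 h the growth passed in 120 genes upward and 43 downward (1.84%). From 24 to 72 h it passed in 1 upward (0.0113%) and 5 downward (0.0565%), 0.0679% in all; 300 genes had an unadjusted p under 0.05 in the later interval. With the rat as a block the later interval gave 65 calls (0.735%), 14 of them upward, and the earlier one 894. Over mitochondrial β-oxidation the median was 0.66 from 6 to 24 h and 0.15 from 24 to 72 h. By 24 h the growth of Fads2 was 2.73, against 2.52 by 72 h, and that of Acot8 was 2.06, against 2.28. Over the cytoskeleton list the medians were -0.37 and -0.53, beside 0.07 and 0.07 over all genes. In the earlier interval 34 of 40 members were negative, against 40.8% of all genes, and in the later one 38 of 40, against 38.4%. Rs628 is among the 24 h treated arrays and not among the 24 h controls. For Flna its 24 h treated array read 8.18, against 6.19 and 6.38 in Rs631 and Rs632. The part of the rats in this split was not tested.

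The 6 genes that passed after 24 h were Ahsg, Spp2, Cryab, Hsd11b1 and Tmsb4x downward and Tmem205 upward. Ahsg, fetuin-A, an abundant plasma protein of hepatocytes, measured 12.86, 12.84, 12.85 and 12.85 at 6 h without and 12.79, 12.76 and 12.75 with GW7647, and 12.72, 12.74, 12.71 and 12.65 at 72 h without and 11.76, 9.29 and 10.43 with it. The other arrays kept to a narrow band, and the 72 h treated arrays lay well below it. Of its growth of -2.13 the part after 24 h was -1.59 ± 0.28 (SE, adjusted p = 9.13e-04). Spp2, a secreted phosphoprotein of liver, measured 11.49, 11.25, 10.94 and 11.41 at 6 h without and 11.23, 10.85 and 11.29 with GW7647, and 11.40, 11.18, 10.89 and 11.23 at 72 h without and 9.79, 7.29 and 8.49 with it, with -2.07 ± 0.43 (SE, adjusted p = 0.0118) after 24 h. The same interval gave -1.91 for Cryab, a small heat shock protein, -0.85 for Hsd11b1, which regenerates active glucocorticoid, -1.72 for the actin-binding peptide Tmsb4x and 0.44 for Tmem205. Tmsb4x and Tmem205 lost the call without the arrays of low signal, which include a 24 h treated array. For Cyp2c11 the parts up to 24 h and after it were -1.07 and -4.36 under the rat block, the latter with an adjusted p of 2.05e-10. With no block they were -0.55 and -4.57, and the latter did not pass (adjusted p = 0.441).

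Secreted plasma proteins were followed over the same intervals, and they did not all fall. At 72 h 3 of the 28 tested acute phase, complement and coagulation genes were higher and 12 lower, beside 12.5% and 15.6% of all genes. Growth shares over all genes were 6.75% upward and 2.86% downward (15.5% and 8.47% with the block). In the list of acute phase, complement and coagulation genes 0 passed for growth upward and 5 downward (rat block 8 and 12), out of 28 tested over the whole interval (0 upward and 4 downward without the arrays of low signal; median -0.28): Klkb1 (-1.89), plasma prekallikrein, F5 (-1.38), coagulation factor V, C3 (-0.47), Hpx (-0.37), hemopexin, and Itih3 (-0.32). C3 lost the call without those arrays. With the rat as a block 6 members passed downward between 24 and 72 h and 0 upward: the fibrinogen chains Fga, Fgb and Fgg (-0.92, -0.83 and -0.75), Itih4 (-1.79), Itih3 (-0.24) and F5 (-0.90). Fga measured 12.20, 12.55, 11.52 and 12.04 at 6 h without and 12.23, 11.64 and 12.11 with GW7647, and 11.99, 12.57, 11.51 and 11.92 at 72 h without and 11.63, 10.37 and 10.46 with it, and in the same blocked fit its part from 6 to 24 h was -0.33. Without the block none of the 6 passed in the later interval, and the parts of Fga were 0.00 and -1.10. The 24 h controls came from Rs627, Rs631 and Rs632 and the 24 h treated arrays from Rs628, Rs631 and Rs632. Serpina1, α1-antitrypsin, a hepatocyte marker, fell late as well (-1.08 ± 0.18 SE, adjusted p = 1.62e-05), as did Ttr (-0.32), while Alb stood at 0.04.

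**Figure D5:**
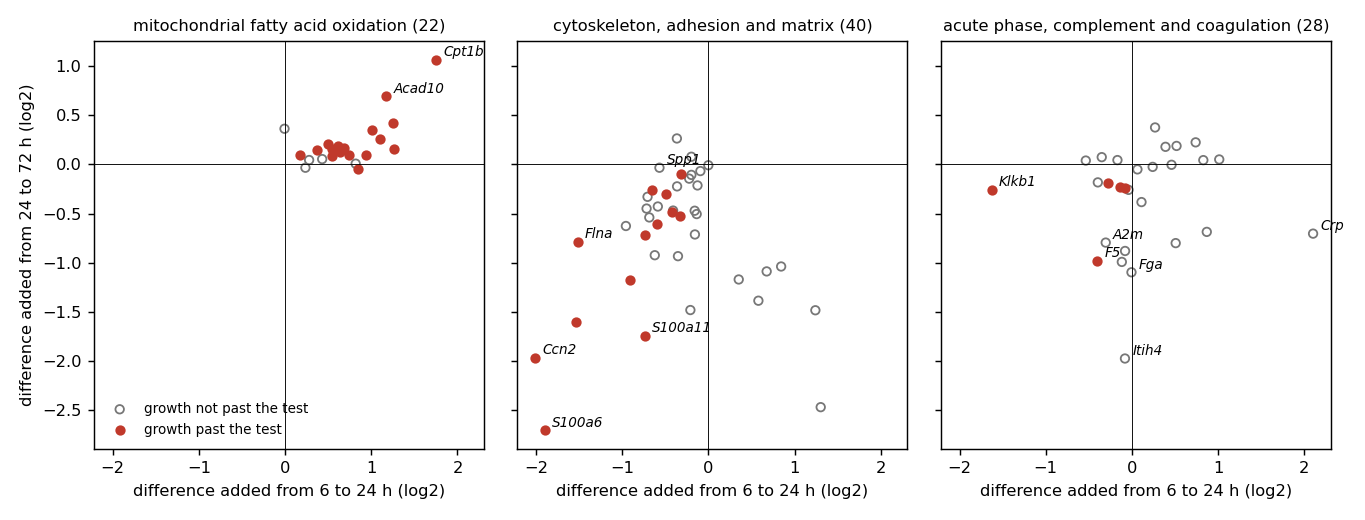
For 3 gene lists the part of the growth added from 6 to 24 h (horizontal axis, log2) is set against the part added from 24 to 72 h (vertical axis, log2), both from the fit without the rat block, with filled points for members whose growth over the whole interval passed the test. Points of mitochondrial β-oxidation spread along the horizontal axis. Those of cytoskeleton, adhesion and matrix lie mostly below 0 on both axes. Itih4 and Fga passed in neither interval in this fit. They lie at -0.08 and 0.00 on the horizontal axis, against -0.26 and -0.33 with the block.

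Growth at 10 µM was also set against growth at 1 µM, with 4 arrays at each of the 2 times, sharing the 0 µM arrays. No gene passed for a difference (0%; 173 had an unadjusted p under 0.05), 1 did with the rat as a block, and 3 did without Rs628. The estimates lay side by side. At 1 µM and 10 µM, Fabp3 changed by 1.43 and 1.22 at 6 h and by 6.15 and 6.81 at 72 h. Corresponding values for Ccn2 were -0.57 and -0.94, then -3.64 and -4.92. Over mitochondrial β-oxidation the 6 h medians were 0.60 and 0.58, and those of 72 h 1.48 and 1.52. The same pairs over the cytoskeleton list were -0.15 and -0.26, then -0.96 and -0.99. The difference in growth between the concentrations was 0.87 ± 0.75 (SE) for Fabp3 and -0.90 ± 0.87 for Ccn2, so differences of about that size could not be resolved.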

How the data were processed

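Total RNA of 100 hepatocyte cultures was labelled with biotin and hybridised, 1 array per culture, per the labels' protocols. The authors deposited log2 intensities for 31139 probe sets; the submitters' processing notes name GCRMA and Partek without version or role. The values were used as deposited. Of the probe sets, 19069 had 1 gene symbol, 572 several and 11498 none; gene IDs of 18989 matched RefSeq (GRCr8). Each gene was taken from its probe set of highest mean (13439 genes), and 8843 that exceeded 5 on 3 or more arrays entered the tests; list members outside these were not analysed here.

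A linear model with 30 group means (70 residual degrees of freedom) was fitted with limma 3.58.1 in R 4.3.3, two-sided, with Benjamini-Hochberg adjustment per comparison at 0.05. It was tested on simulated data. The simulated noise was independent between arrays, so that test does not cover arrays of 1 rat that correlate. Where arrays lay at or under 5, that value is the floor of a fold. Same-rat deviations from group means correlated (median 0.62, other rats -0.23), so the rat, named in the labels, is a valid block. Classes, SEs, intervals and p values are from the fit without it unless stated, which treats arrays of 1 rat as independent. The block was fitted as an alternative, beside scaling, filters, left-out rats, arrays of low signal (75th percentile under 6.6) and repeated plate positions. Named genes were up to 15 per direction of growth by size, up to 10 per direction of complete genes, up to 10 receded, up to 6 per list and known PPARα targets. Members, lists and tests were chosen with earlier results of these data known.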

Additional observations from a re-analysis of the deposited data

Results flagged for a closer look

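Among the largest rises and falls and the largest complete rises, 7 of 80 control groups of 4 arrays held a value far from the 3 others, where chance gives about 1 in 20. In the 6 h controls these were Adig in Rs632 (3.80, nearest 4.32), Cpt1b in Rs627 (7.22, nearest 6.57) and Tgfb2 in Rs631 (7.86, nearest 9.34). In the 72 h controls they were Cyp2c13 in Rs627 (7.80, nearest 7.38), Gstp1 in Rs632 (9.43, nearest 10.97), Txnip in Rs631 (8.62, nearest 9.19) and Cpt2 in Rs628 (9.02, nearest 9.79).

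For 4 genes the response had opposite signs at the 2 times, with both changes and their difference past the test. The growth was -1.80 for Ceacam1, 0.76 for Cox15, 0.58 for Ppp3ca and 1.22 for Zdhhc2. Cox15, which makes heme A for cytochrome oxidase, stood at -0.42 at 6 h and 0.34 at 72 h, and its 6 h change was -0.30 (adjusted p = 0.0476) without the arrays of low signal. The 6 h changes of Ppp3ca and Zdhhc2 were -0.23 and -0.09 without those arrays and did not pass.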

How the results depend on the processing

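The number of arrays limits these results: 2 or 3 treated arrays per time, 1 of low signal. Of 195 calls of named genes, 92 passed in the same direction under all alternatives run and 0 reversed; 28 were lost without the arrays of low signal, 70 with the 14 arrays alone, 63 without Rs632, 61 without Rs627 and 8 after quantile normalization. Counts that moved by over 1.5 times follow, with the main count in brackets. With the rat as a replicate block there were 1372 genes with upward growth (main 597), 749 genes with downward growth (main 253), 254 genes higher at 6 h (main 138), 1028 genes lower at 6 h (main 242), 2121 genes lower at 72 h (main 1376), 3324 genes with a time difference in controls (main 1838), 894 genes with growth from 6 to 24 h (main 163), 65 genes with growth from 24 to 72 h (main 6), 1 gene whose growth differed between concentrations (main 0), 1522 late genes (main 697), 207 genes grown further (main 54), 688 genes complete at 6 h (main 199) and 224 receded genes (main 33). With the 14 arrays fitted alone there were 149 genes with upward growth (main 597), 106 genes with downward growth (main 253), 75 genes higher at 6 h (main 138), 30 genes lower at 6 h (main 242), 217 genes with a time difference in controls (main 1838), 225 late genes (main 697), 23 genes grown further (main 54), 43 genes complete at 6 h (main 199) and 3 receded genes (main 33). Without the arrays of low signal there were 320 genes with upward growth (main 597), 19 genes lower at 6 h (main 242), 76 genes complete at 6 h (main 199) and 8 receded genes (main 33). Without arrays at repeated plate positions there were 210 genes with upward growth (main 597), 24 genes lower at 6 h (main 242), 352 late genes (main 697), 32 genes grown further (main 54), 91 genes complete at 6 h (main 199) and 5 receded genes (main 33). After quantile normalization there were 439 genes with downward growth (main 253), 214 genes higher at 6 h (main 138) and 115 genes with a time difference in controls (main 1838). With values under 5 set to 5 there were 221 genes higher at 6 h (main 138), 13 genes with growth from 24 to 72 h (main 6) and 303 genes complete at 6 h (main 199). After median centring there were 129 genes with a time difference in controls (main 1838). Leaving out 1 rat at a time gave 170 to 824 genes with upward growth, 101 to 300 genes with downward growth, 69 to 159 genes higher at 6 h, 6 to 975 genes lower at 6 h, 726 to 1007 genes higher at 72 h, 775 to 1252 genes lower at 72 h, 669 to 1388 genes with a time difference in controls, 1609 to 2882 genes with one in treated cultures, 28 to 346 genes with growth from 6 to 24 h, 0 to 17 genes with growth from 24 to 72 h, 0 to 3 genes whose growth differed between concentrations, 311 to 647 late genes, 21 to 62 genes grown further, 42 to 397 genes complete at 6 h and 3 to 205 receded genes. Without Rs627, which removes the 6 h array of low signal, the genes lower at 6 h fell to 6 and upward growth to 170; without Rs631 the former rose to 975. The cause of each of these moves was not tested.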

Other observations

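Of 18 tested genes of cholesterol synthesis and uptake, 1 grew downward and 0 upward. It was Msmo1, a sterol C4-methyl oxidase, with a growth of -1.30 ± 0.24 (SE, adjusted p = 6.56e-05). The median growth was -0.30, and 7 passed downward with the rat as a block. Beside these, 2.86% of all genes grew downward and 6.75% upward, and 8.47% grew downward with the block. Insig1, which holds back sterol synthesis, was complete at 6 h (0.89 and 0.61). Of 17 bile acid and transporter genes, 1 grew upward and 1 downward, Cyp8b1 and Abcc2; Cyp7a1, the rate-limiting enzyme of bile acid synthesis, stood at -0.51 at 6 h and 0.12 at 72 h without a call.

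Subunits of the respiratory chain showed small changes, seen at 72 h. None of 31 passed at 6 h, 16 were higher at 72 h, and 5 passed for growth upward. The growth count was 3 without the arrays of low signal and 19 with the rat as a block. Of all genes 12.5% were higher at 72 h. The share with upward growth was 6.75%, or 3.66% without the arrays of low signal and 15.5% with the block. The median growth was 0.23, beside 0.14 over all genes. Examples are Sdhd (0.46) and Uqcrfs1 (0.44). In ATF4 and unfolded protein genes 1 passed for growth upward and 1 downward (rat block 4 and 7), out of 23 tested, Shmt2 (0.82) and Hsp90b1 (-0.44). In cell cycle genes 2 passed for growth upward and 0 downward (rat block 2 and 4), out of 20 tested. They were Cdk2 (0.96) and Tk1 (1.05), the latter lost without the arrays of low signal. Without the block, the ATF4 and cell cycle counts lie near the shares over all genes, 6.75% upward and 2.86% downward. With it the shares were 15.5% and 8.47%. Ccnd1, cyclin D1, stood at -1.92 at 72 h with a growth of -1.69 that did not pass. Of 20 hepatocyte markers 1 grew upward, Cyp2e1, and 3 downward, Ahsg, Serpina1 and Ttr.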
